A study of Anser cygnoides with 11 samples.

Results

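Transcripts of B cells and of plasma cells, the antibody-secreting descendants of B cells, were examined in kidney RNA of 11 swan goose (Anser cygnoides) goslings, 5 with visceral gout and 6 healthy. The set holds 10 genes of the 19275 rows of the table, matched by gene symbol, and each symbol had 1 row. The genes were taken up because they were lower in gout in these same libraries. CD79A, MS4A1 and CR2, markers often used for B cells, had no row under those symbols and were not analysed here. The differences of the 10 genes between gout and control are given as a description. Counts of their calls in the fit over all rows stand beside the background and support nothing, and no p-value of single members is given for this contrast. The gout goslings were picked for the typical signs of visceral gout and for their serum values, and the controls were healthy. The labels give the groups no treatment that was used here, and no age, sex, breed or genotype. Each library is whole kidney of 1 gosling, so fewer cells of a type and less RNA per cell cannot be told apart.

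Birds raise B cells in the bursa of Fabricius, and the cells then settle in other organs. On a B cell the membrane antibody sits beside the CD79 chains, which pass antigen binding on to tyrosine kinases. After activation some B cells become plasma cells, which secrete antibody. IgM is secreted as a polymer that the joining chain helps to hold together. No sequences of these genes were used here.

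Levels are FPKM, that is fragments divided by transcript length and by the number mapped in the library, so levels of different genes are compared per length. FPKM column totals ranged from 229465 to 399990 in the gout and from 306484 to 390546 in the control libraries. No fragment counts could be recovered, so the sequencing depth is unknown. Kidney markers were present in both groups. The summed level of 17 proximal tubule markers ranged from 471 to 1225 FPKM in gout and from 556 to 2747 FPKM in control, and that of 9 podocyte markers from 59.6 to 161 and from 102 to 190 FPKM. One library of the gout group, gout replicate 1, stood apart in immune transcripts. It is given apart for the 10 genes and for some of the other genes. Gout replicate 1 had the highest level of all 10 genes within the gout group. Among the control libraries, control replicate 3 had the lowest level of 8 of the 10 genes.

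LOC106049915, described in the table as similar to an Ig mu heavy chain disease protein, is the IgM heavy chain row of this set. In the control kidneys it stood at 903, 2033, 60.1, 453, 1809 and 809 FPKM in replicates 1 to 6. In the gout kidneys it stood at 108 FPKM in replicate 1 and at 1.30, 3.41, 4.44 and 3.36 FPKM in replicates 2 to 5. Control replicates 2 and 5 were highest, gout replicates 2 to 5 lay below all controls, and only gout replicate 1 overlapped the control range, above control replicate 3. The mean was 1011 ± 768 FPKM in control (SD, n = 6) and 24.2 ± 47.1 FPKM in gout (SD, n = 5), a ratio of 41.8. Without gout replicate 1 the gout mean was 3.13 ± 1.31 FPKM (SD, n = 4) and the ratio 323. The row ranked between 14 and 676 among all rows by level in the control libraries. In gout it ranked 333 in replicate 1 and between 6231 and 10451 in the other libraries.

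JCHAIN, the joining chain of polymeric antibody, was the second most abundant of the genes by control mean. The control libraries held 218, 394, 76.6, 119, 523 and 253 FPKM in replicates 1 to 6. The gout libraries held 116 FPKM in replicate 1 and 1.95, 7.47, 2.62 and 1.99 FPKM in replicates 2 to 5. As for the mu chain row, gout replicate 1 lay above control replicate 3 and the other gout libraries lay below all controls. The mean was 264 ± 169 FPKM in control and 26.0 ± 50.3 FPKM in gout (SD, n = 6 and 5), a ratio of 10.2, which became 75.2 without gout replicate 1.

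The balance of the antibody transcripts also differed between libraries. JCHAIN reached between 0.194 and 0.313 of the level of LOC106049915 in control replicates 1, 2, 4, 5 and 6. In control replicate 3, the control with the least of both, the ratio was 1.27. In gout replicates 1 to 5 it was 1.07, 1.5, 2.19, 0.589 and 0.593. All gout libraries were thus above the 5 controls with abundant antibody transcripts, and control replicate 3 lay among the gout libraries. In gout replicates 2 to 5 the ratio divides low levels, JCHAIN at 1.95 to 7.47 FPKM by LOC106049915 at 1.30 to 4.44 FPKM. Without counts its error is unknown there.

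**Figure D1:**
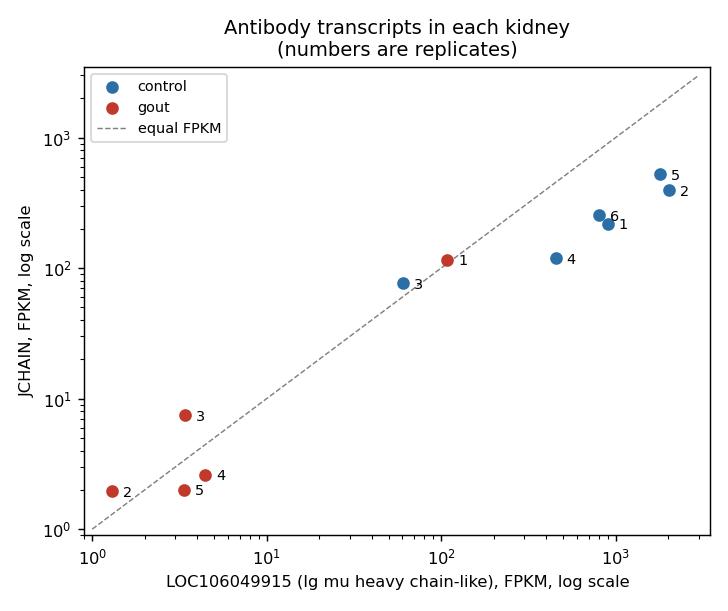
Level of JCHAIN (vertical axis, FPKM, log scale) against LOC106049915 (horizontal axis, FPKM, log scale) in each kidney, with control libraries in blue, gout libraries in red, replicate numbers beside the points and a dashed line of equal FPKM. Control replicates 1, 2, 4, 5 and 6 lie well below the line, while control replicate 3 and gout replicate 1 lie close to each other near it and the other 4 gout libraries sit below 10 FPKM on both axes.

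CD79B, the beta chain that signals for the B cell antigen receptor, is chiefly a B cell transcript. It stood at 5.29, 2.99, 1.66, 2.54, 3.18 and 5.21 FPKM in control replicates 1 to 6 and at 0.798, 0.132, 0.340, 0.138 and 0 FPKM in gout replicates 1 to 5. CD79B was lower in every gout library, replicate 1 included, than in every control library. The means were 3.48 ± 1.47 and 0.282 ± 0.313 FPKM (SD, n = 6 and 5), a ratio of 12.3, or 22.8 without gout replicate 1. Its control libraries spanned a factor of 3.18, against 33.8 for LOC106049915 and 6.82 for JCHAIN.

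The kinases that act next to the receptor differed from each other. BLK, a Src family kinase of B cells, stood at 5.29, 2.71, 1.97, 1.52, 1.69 and 2.25 FPKM in control replicates 1 to 6. In gout it stood at 1.60 FPKM in replicate 1 and at 0.350, 0.323, 0.498 and 0.0761 FPKM in replicates 2 to 5. Only gout replicate 1 reached the control range, and the ratio of the means was 4.51, or 8.25 without it. BTK, the kinase whose loss causes a lack of B cells in humans and which myeloid cells use as well, overlapped between the groups. It stood at 12.3, 9.80, 3.64, 5.73, 6.90 and 6.40 FPKM in control replicates 1 to 6 and at 6.94, 2.32, 5.12, 4.08 and 2.02 FPKM in gout replicates 1 to 5. Just 2 of the 5 gout libraries were below all controls, and the ratio of the means was 1.82.

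**Figure D2:**
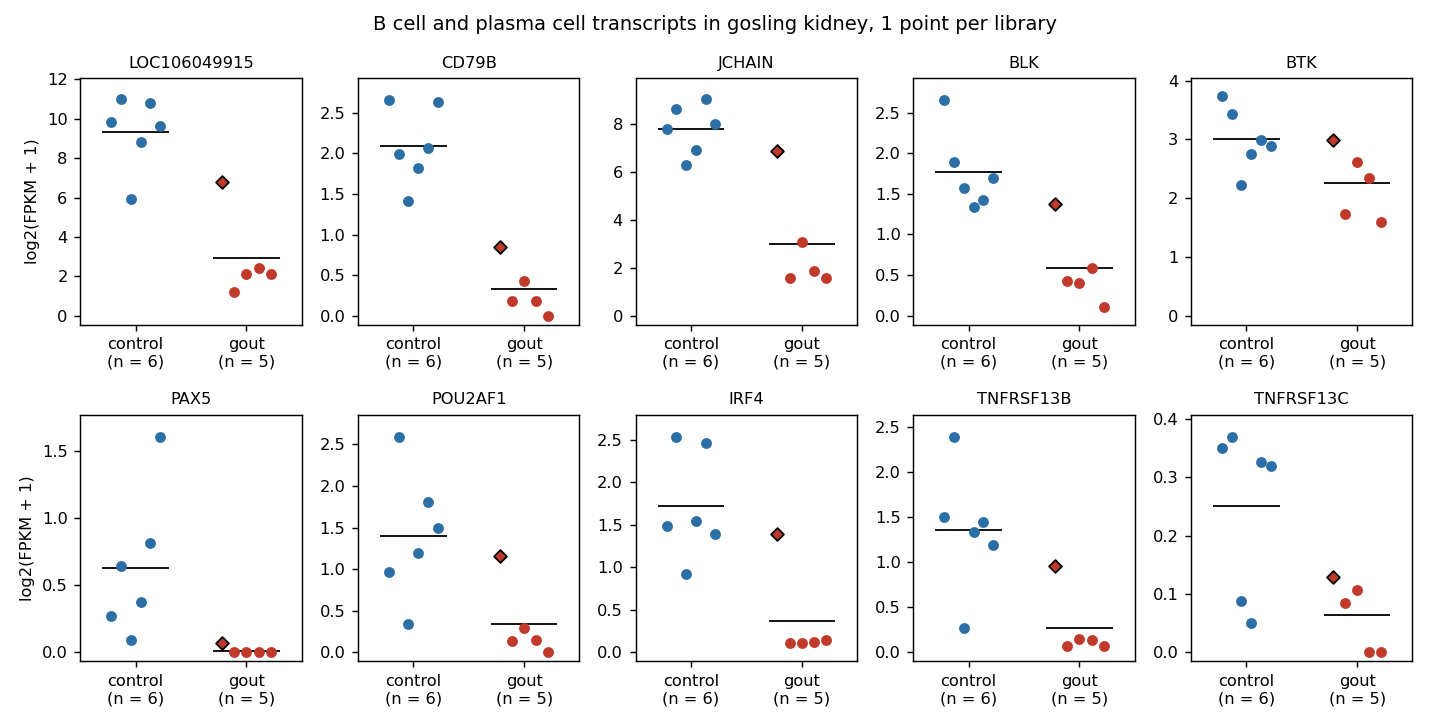
Level of each of the 10 transcripts as log2(FPKM + 1) (vertical axis, scaled separately per gene) in 6 control (blue) and 5 gout (red) libraries, with the mean as a line and gout replicate 1 as a diamond. CD79B and PAX5 show no overlap of the groups, BTK overlaps most, and in the remaining panels except TNFRSF13C gout replicate 1 alone reaches the control range.

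Among the transcription regulators, PAX5, the factor that fixes B cell identity and is switched off in plasma cells, was near the lower end of what the table lists. In control replicates 1 to 6 it stood at 0.205, 0.560, 0.0637, 0.296, 0.756 and 2.03 FPKM. In gout it was listed at 0.0477 FPKM in replicate 1 and at 0 in replicates 2 to 5. The groups did not overlap, but control replicate 3 exceeded gout replicate 1 by little. POU2AF1, the coactivator that works with octamer-binding factors at antibody genes, stood at 0.953, 5.01, 0.268, 1.29, 2.50 and 1.83 FPKM in control replicates 1 to 6 and at 1.23, 0.0975, 0.223, 0.107 and 0 FPKM in gout replicates 1 to 5. IRF4, which drives the step to plasma cells and also acts in T cells, stood at 1.80, 4.80, 0.902, 1.92, 4.50 and 1.62 FPKM in control and at 1.62, 0.0752, 0.0761, 0.0907 and 0.105 FPKM in gout. For both regulators gout replicate 1 lay inside the control range and the other 4 gout libraries below it. The ratio of the means went from 5.97 to 18.5 for POU2AF1 and from 6.57 to 29.9 for IRF4 when gout replicate 1 was left out.

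TNFRSF13B and TNFRSF13C are the receptors TACI and BAFF-R, which bind BAFF, a survival cytokine of B cells. TNFRSF13B stood at 1.83, 4.24, 0.209, 1.53, 1.72 and 1.29 FPKM in control replicates 1 to 6 and at 0.936, 0.0481, 0.110, 0.0965 and 0.0504 FPKM in gout replicates 1 to 5. The ratio of its means was 7.26, or 23.7 without gout replicate 1, which lay inside the control range while the other gout libraries lay below it. TNFRSF13C had the lowest control mean of the set, 0.194 ± 0.113 FPKM (SD, n = 6), against 0.0460 ± 0.0437 FPKM in gout (SD, n = 5). It ranged from 0.0360 to 0.291 FPKM in control and from 0 to 0.0937 FPKM in gout, and the groups overlapped.

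By their control means the genes followed the order LOC106049915, JCHAIN, BTK, CD79B, IRF4, BLK, POU2AF1, TNFRSF13B, PAX5 and TNFRSF13C. The gap between JCHAIN and BTK was the only step at which the control ranges did not overlap. The step from BTK to CD79B was 3.99 FPKM and exceeded the larger SD of 3.10 FPKM, although the ranges overlapped. All other neighbours in this order differed by less than the larger of their SDs. Together the 10 genes took between 0.0475% and 0.711% of all FPKM in the control libraries. In gout they took 0.0650% in replicate 1 and between 0.0019% and 0.00748% in the others.

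The linear model of limma was fitted over the rows that reached 1 FPKM in 5 or more libraries, and 8 of the 10 genes did so. PAX5 and TNFRSF13C did not, and CD79B and TNFRSF13B passed through control libraries alone. Of the 8 genes, 6 had an adjusted p under 0.05 and lower levels in gout, 0 were higher, and BTK and POU2AF1 were not called. The count was 3 without gout replicate 2 or gout replicate 3, where 267 and 380 of the 12252 rows were called lower. It was 3 after quantile normalization, where 245 of the 12252 rows were called lower. Of all 12252 rows fitted with all goslings and without quantile normalization, 6.29% were called lower and 0.694% higher. Nothing is read from the count of 6, because the genes were chosen from this contrast. All gout libraries lay below all control libraries for 2 of the 10 genes, CD79B and PAX5, and for 3.77% of all rows. Without gout replicate 1 this held for 8 of the 10 genes and for 8.02% of all rows.

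Fold changes on the log2(FPKM + 1) scale understate changes of rows near 1 FPKM. On this scale the difference of gout from control was -6.40 (SE 1.0) for LOC106049915 and -4.78 (SE 0.84) for JCHAIN. The less abundant genes had differences of -1.77 (SE 0.24) for CD79B, -1.35 (SE 0.32) for IRF4, -1.18 (SE 0.27) for BLK, -1.08 (SE 0.30) for TNFRSF13B, -1.05 (SE 0.34) for POU2AF1 and -0.75 (SE 0.32) for BTK. The median over all 12252 rows was -0.29, so that BTK differed by -0.46 and LOC106049915 by -6.12 relative to it. Quantile normalization, which makes the distributions of the libraries equal, moved that median to 0.01. The differences were then -6.10 for LOC106049915, -4.39 for JCHAIN, -1.5 for CD79B and -0.42 for BTK. With a pseudocount of 0.01 in place of 1 the differences of the less abundant genes were larger, -4.50 for CD79B, -3.70 for IRF4, -3.45 for POU2AF1, -3.33 for TNFRSF13B and -2.61 for BLK, against -6.77 for LOC106049915. All 8 remained negative under each of the other scalings, pseudocounts and filters and with each gosling left out, where tested. Nothing is read from this sign, because the genes were chosen as lower in gout in these same libraries.

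**Figure D3:**
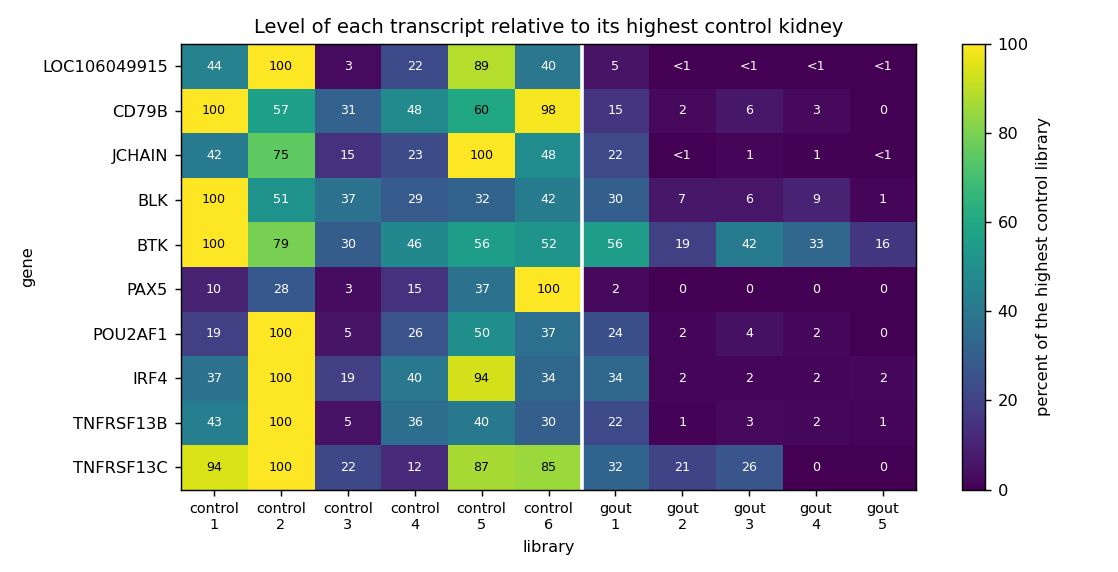
Level of each transcript (rows) in each library (columns) as percent of its highest control library, by colour and by number, with the 6 control libraries left and the 5 gout libraries right of the white line. Control replicates 2 and 5 are high for LOC106049915, JCHAIN and IRF4, control replicates 1 and 6 for CD79B, and control replicate 6 alone for PAX5, while gout replicates 2 to 5 are at or near 0 in most rows other than BTK and TNFRSF13C.

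The healthy kidneys were compared with each other because the choice of the genes did not use this variation. The genes did not share one order of goslings. Control replicate 2 was highest for LOC106049915, POU2AF1, IRF4, TNFRSF13B and TNFRSF13C. Control replicate 1 was highest for CD79B, BLK and BTK, control replicate 5 for JCHAIN and control replicate 6 for PAX5. PAX5 in control replicate 6, at 2.03 FPKM, was above its other 5 control values, which reached 0.756 FPKM.

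Within the 6 control kidneys 12 relations were tested on the log2(FPKM + 1) scale, 9 of JCHAIN with each other gene and 3 of the mean of the 10 genes with means of other cell type markers. With 6 libraries the exact two-sided permutation p cannot go below 0.00278. Of the 9 relations with JCHAIN, that with LOC106049915 had the highest Pearson's r, 0.928 (exact permutation p = 0.0111, adjusted p = 0.133). Its Spearman's rho was 0.886 (exact permutation p = 0.0333, adjusted p = 0.2), equal to that of JCHAIN with POU2AF1. Without control replicates 3 and 5, the libraries farthest from the median of JCHAIN, r was 0.960. JCHAIN with IRF4 gave r = 0.877 (exact permutation p = 0.0333, adjusted p = 0.144) and rho = 0.714 (exact permutation p = 0.136, adjusted p = 0.272), with r = 0.677 without those libraries. JCHAIN with POU2AF1 gave r = 0.835 (exact permutation p = 0.0361, adjusted p = 0.144) and rho = 0.886 (exact permutation p = 0.0333, adjusted p = 0.2), with r = 0.770 without them. JCHAIN with TNFRSF13C gave r = 0.854 (exact permutation p = 0.0861, adjusted p = 0.211) and rho = 0.657 (exact permutation p = 0.175, adjusted p = 0.3), with r = 0.896 without them. JCHAIN with TNFRSF13B gave r = 0.739 (exact permutation p = 0.103, adjusted p = 0.211) and rho = 0.6 (exact permutation p = 0.242, adjusted p = 0.322), with r = 0.707 without them. JCHAIN with BTK gave r = 0.621 (exact permutation p = 0.175, adjusted p = 0.271) and rho = 0.6 (exact permutation p = 0.242, adjusted p = 0.322), with r = 0.527 without them. JCHAIN with PAX5 gave r = 0.529 (exact permutation p = 0.258, adjusted p = 0.344) and rho = 0.771 (exact permutation p = 0.103, adjusted p = 0.272), with r = 0.327 without them. JCHAIN with CD79B gave r = 0.504 (exact permutation p = 0.322, adjusted p = 0.387), with rho = 0.486 (exact permutation p = 0.356, adjusted p = 0.427) and r = 0.252 without them. JCHAIN with BLK gave r = 0.135 and rho = 0.143 (exact permutation p = 0.864 and 0.803, and the same after adjustment), with r = 0.373 without them. None of the 12 relations passed after adjustment.

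The mean of the 10 genes was set against markers of other cell types in the same 6 kidneys. Its r was 0.525 with T and NK cell markers (exact permutation p = 0.181, adjusted p = 0.271) and rho was 0.829 (exact permutation p = 0.0583, adjusted p = 0.233). With macrophage markers r was 0.735 (exact permutation p = 0.106, adjusted p = 0.211) and rho was 0.714 (exact permutation p = 0.136, adjusted p = 0.272). Without control replicates 3 and 4, those farthest from the median, r was -0.39 and -0.000976. These values use the 4 libraries left after the extremes were cut, so they cannot show what either relation rests on. With endothelial markers r was -0.16 and rho was -0.14 (exact permutation p = 0.769 and 0.803, adjusted p = 0.839 and 0.803), with r = -0.55 without control replicates 3 and 4.

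Genes that work beside the 10 in B cells were taken from 6 lists written by role. Of 138 listed symbols 97 had a row and 80 were tested. In limma with Benjamini-Hochberg adjustment 20 of the 80 fell in gout and 0 rose, where 6.29% of all rows fell. After quantile normalization 3 of the 80 fell, where 2.0% of all rows were called lower. The count was 28 without gout replicate 1, where 10.5% of all rows were called lower. It was 2 without gout replicate 2 or gout replicate 4, where 267 and 311 of the 12252 rows were called lower. It was 7 without gout replicate 3, where 380 of the 12252 rows were called lower. It was 5, 7, 11, 3 and 7 without control replicates 1, 2, 3, 5 and 6 respectively. There 397, 565, 513, 275 and 463 of the 12252 rows were called lower.

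Of 17 plasma cell and secretory genes tested, 3 fell and 14 did not pass, where 6.29% of all rows fell. PIGR, the epithelial receptor that carries polymeric antibody into secretions, fell from 43.1 ± 27.1 FPKM in control to 9.02 ± 9.12 FPKM in gout (SD, n = 6 and 5; limma adjusted p = 0.0295). MZB1, a chaperone of the endoplasmic reticulum that helps B cells assemble IgM, fell from 12.0 ± 8.40 to 1.80 ± 2.32 FPKM (limma adjusted p = 0.0226), with 0.791 FPKM in gout without replicate 1. TXNDC5, a disulfide isomerase of many secretory cells, fell from 15.7 ± 7.13 to 5.53 ± 4.50 FPKM (limma adjusted p = 0.0443). PIGR and MZB1 were also called after quantile normalization and TXNDC5 was not (limma adjusted p = 0.0478, 0.0447 and 0.0721). Over 21 alternatives PIGR lost its call in 7, MZB1 in 4 and TXNDC5 in 12. Each of them lost it without gout replicate 2, without gout replicate 3 and without gout replicate 4. LOC106045966, described as similar to an Ig heavy chain of antibody Mem5, fell as well, from 13.3 ± 9.11 to 2.11 ± 3.03 FPKM, with 7.53 FPKM in gout replicate 1 and at most 0.996 FPKM in the other gout libraries (limma adjusted p = 0.0276, and 0.0508 after quantile normalization).

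Of 4 tested coreceptors and surface genes 2 fell, where 6.29% of all rows fell. CD83, an activation marker of B cells and dendritic cells, fell from 7.97 ± 3.16 to 2.81 ± 3.17 FPKM (limma adjusted p = 0.0392). It stood at 8.34 FPKM in gout replicate 1, inside the control range, and at most at 2.62 FPKM in the other gout libraries. CD81, a tetraspanin present on most cell types, fell from 38.6 ± 9.07 to 21.1 ± 6.39 FPKM (limma adjusted p = 0.0478). Of 21 signalling genes 4 fell, PRKCB, PTPRC, SYK and INPP5D. PTPRC, the phosphatase CD45 of all white blood cells, went from 6.87 ± 3.81 to 1.52 ± 1.62 FPKM (limma adjusted p = 0.0304), and SYK, the kinase recruited by the CD79 chains and by myeloid receptors, from 2.19 ± 0.825 to 0.671 ± 0.527 FPKM (limma adjusted p = 0.0373). In gout replicate 1 PTPRC stood at 4.23 and SYK at 1.02 FPKM, both inside the control range. SYK in gout replicate 3, at 1.37 FPKM, lay inside it as well. None of these 6 genes was called after quantile normalization, where 2.0% of all rows were called lower.

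Of 13 transcription factors 5 fell, where 6.29% of all rows fell. SPI1, the factor PU.1 of macrophages and B cells, went from 49.3 ± 26.2 to 14.4 ± 12.0 FPKM (limma adjusted p = 0.0228), and MEF2C from 4.75 ± 1.60 to 1.72 ± 0.602 FPKM (limma adjusted p = 0.0193), with no overlap of the groups for MEF2C. SPI1 stood at 34.7 FPKM in gout replicate 1, inside the control range, and at most at 15.9 FPKM in the other gout libraries. LEF1, ETS1 and IRF8 completed the 5, of which LEF1 and ETS1 are also factors of T cells and IRF8 of myeloid cells. Of 15 survival and cytokine signals 4 fell, IL21R, IL7R, TRAF5 and BCL2A1, and the receptor IL21R went from 1.40 ± 0.674 to 0.282 ± 0.368 FPKM (limma adjusted p = 0.0218). IL21R reached 1 FPKM in control libraries alone, so it entered the fit only through the group in which it was higher. Of 10 homing genes CXCL12, the chemokine that holds plasma cells in their niches, fell from 6.67 ± 1.89 to 2.29 ± 0.846 FPKM without overlap of the groups (limma adjusted p = 0.0138). Its receptor CXCR4 fell from 8.53 ± 4.33 to 2.41 ± 2.27 FPKM (limma adjusted p = 0.0341). CXCR4 stood at 3.55 FPKM in gout replicate 1, below all controls, and at 5.86 FPKM in gout replicate 3, inside the control range. CXCL12 was called in all 21 alternatives, with limma adjusted p up to 0.042, while CXCR4 lost its call in 12 of the 21. After quantile normalization, where 2.0% of all rows were called lower, limma called 0 of the 13 transcription factors. It called 0 of the 15 survival and cytokine signals, and CXCR4 was not called (limma adjusted p = 0.116). IRF8 and SPI1 had limma adjusted p = 0.0516 and 0.0541 there.

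**Figure D4:**
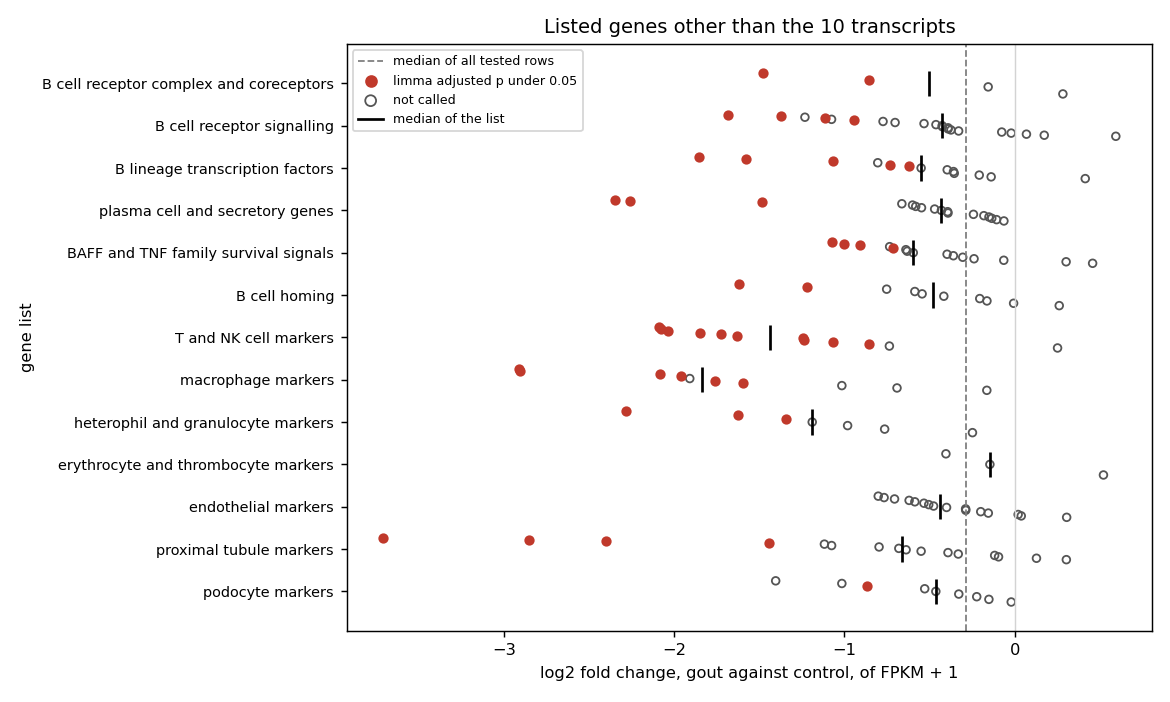
Difference of gout from control on the log2(FPKM + 1) scale (horizontal axis) for the tested genes of 6 B cell lists and 7 lists of other cell types (vertical axis), with genes at limma adjusted p under 0.05 filled, list medians as black bars and the median of all tested rows, -0.29, as a dashed line. T and NK cell, macrophage, heterophil and proximal tubule genes have lower medians than the B cell lists. The podocyte and endothelial medians lie within the range of the B cell lists, and no gene of any list is called higher.

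The medians of the 6 B cell lists lay between -0.60 and -0.43, against -0.29 for all tested rows. Lists of kidney cells had similar medians, -0.66 for proximal tubule, -0.46 for podocyte and -0.44 for endothelial markers. Many of the B cell list genes that fell are shared with other white blood cells, and markers of those cells were lower in the same libraries. Of 12 tested T and NK cell markers 10 fell, where 6.29% of all rows fell, and the median of the list was -1.44. Of 10 macrophage markers 6 fell, with a median of -1.83. Of 7 heterophil markers, which stand for avian granulocytes, 3 fell, NCF4, LYZ and NCF1, and the median of that list was -1.19. Whether these 3 transcripts came from granulocytes or from other white blood cells was not tested. After quantile normalization 6, 3 and 0 markers of these lists fell, where 2.0% of all rows were called lower. CD2, a T cell adhesion receptor, went from 9.64 ± 3.28 to 1.81 ± 1.91 FPKM and CTSS, a protease of antigen-presenting cells, from 81.4 ± 30.9 to 22.8 ± 7.16 FPKM (limma adjusted p = 0.00568 for both). Gout replicate 1 had the highest gout level of both, 5.15 FPKM for CD2 and 34.0 FPKM for CTSS, below all controls.

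Markers of kidney tissue and of blood were counted in the same way. Of 16 proximal tubule markers 4 fell, SLC22A7, GATM, SLC6A19 and ANPEP, of which GATM reached 1 FPKM in control libraries alone and so entered the fit only through them, and of 9 podocyte markers 1 fell. Of 16 endothelial markers 0 passed limma, with 5 at an unadjusted p under 0.05, and of 3 erythrocyte and thrombocyte markers 0 passed, with 0 at an unadjusted p under 0.05. Over all 7 lists of other cell types 24 of 72 markers fell, where 6.29% of all rows fell. Without gout replicate 2 the count was 15, where 267 of 12252 rows were called lower. The part of these markers in the differences of the 10 genes was not tested.

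The summed levels show how the groups of transcripts moved in single libraries. The 10 genes summed to between 146 and 2457 FPKM in control, to 237 FPKM in gout replicate 1 and to between 6.34 and 17.2 FPKM in gout replicates 2 to 5. The 17 T and NK cell markers summed to between 107 and 228 FPKM in control, to 158 FPKM in gout replicate 1 and to between 38.4 and 86.2 FPKM in the other gout libraries. The 10 macrophage markers summed to between 1013 and 4941 FPKM in control, to 1502 FPKM in gout replicate 1 and to between 158 and 489 FPKM in the others. In gout replicate 1 the T and NK cell sum was therefore at 110% of the control median, the macrophage sum at 56.8% and the sum of the 10 genes at 21.3%. The 4 T and NK cell markers with the smallest limma p were below their control medians there. That fit includes gout replicate 1, so the choice of these 4 favours markers that are low in it. CD2 stood at 5.15 against 9.26 FPKM, CD3D at 35.7 against 49.1, CD8A at 3.03 against 5.34 and CD247 at 7.18 against 7.76 FPKM. In gout replicates 2 to 5 they reached at most 1.49, 16.2, 0.247 and 1.33 FPKM in this order. The other markers of that list are not given singly. As the sum of the whole list was above its control median in gout replicate 1, these 4 do not stand for the list. JCHAIN and LOC106049915 carry most of the sum of the 10 genes, and without them the other 8 genes were at 62.6% of the control median in gout replicate 1. CD74, the invariant chain of MHC class II, which B cells also express, made up 84.4% of the macrophage sum in gout replicate 1 and between 78.9% and 87.9% in control. The other 9 macrophage markers, a split chosen after the values were seen, were at 68.2% of the control median in gout replicate 1 and between 15.9% and 24.5% in gout replicates 2 to 5. In gout replicates 2 to 5 the sum of the 10 genes was between 0.568% and 1.54% of the control median, that of the 8 genes without JCHAIN and LOC106049915 between 10.6% and 29.6%, and the T and NK cell sum between 26.9% and 60.3%. BTK, which overlapped most between the groups, made up most of that 8-gene sum there. It held 2.32, 5.12, 4.08 and 2.02 of 3.08, 6.27, 5.01 and 2.25 FPKM in gout replicates 2 to 5. In control replicates 1 to 6 it held 12.3, 9.80, 3.64, 5.73, 6.90 and 6.40 of 28.0, 30.4, 8.78, 14.9, 21.5 and 20.9 FPKM. The genes left without BTK were not summed. No marker of these lists that had a row was at 0 in all libraries.

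**Figure D5:**
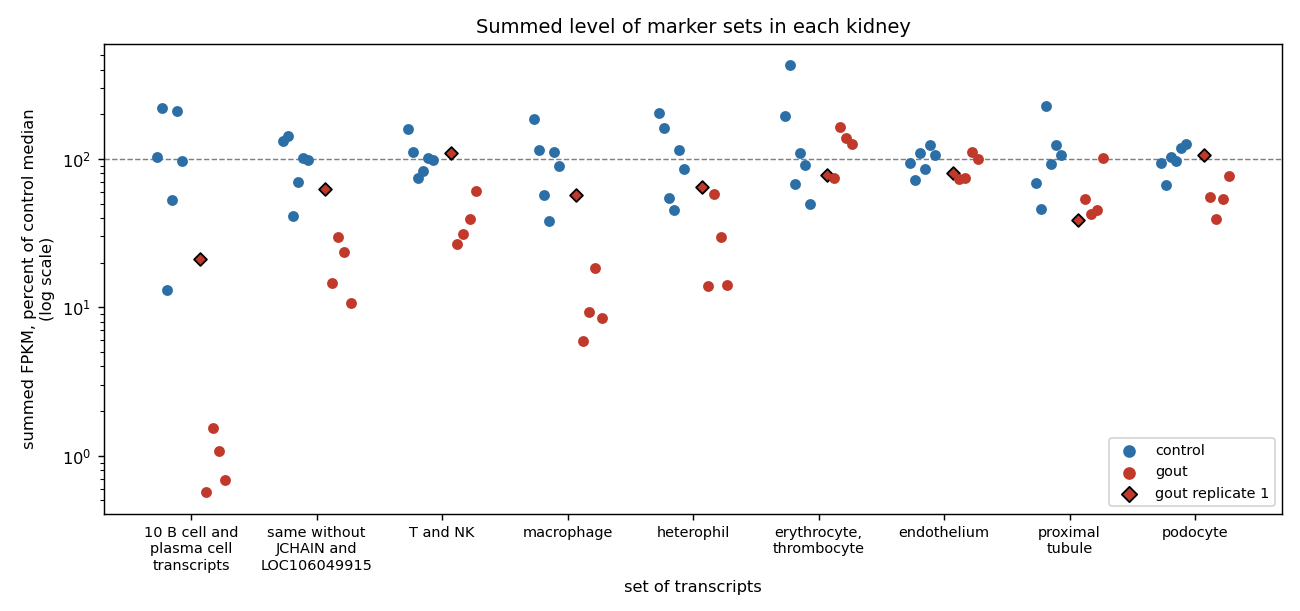
Summed FPKM of the 10 transcripts, of the 10 without JCHAIN and LOC106049915, and of 7 lists of other cell types in each library, as percent of the control median (vertical axis, log scale), with control libraries in blue, gout libraries in red and gout replicate 1 as a diamond. The 4 other gout libraries lie near 1% for the 10 transcripts, between 10.6% and 29.6% without the antibody genes, and among the controls for endothelial markers. BTK makes up most of the sum without the antibody genes in these 4 libraries.

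The 6 rows with a symbol whose levels over the 11 libraries were most like the mean of the 8 fitted genes, each scaled to its own spread, were CD8A (Pearson's r = 0.990), ATP10D (0.969), TNFRSF18 (0.968), RASSF2 (0.966), CSF1R (0.964) and PDCD1 (0.964). These values describe 11 libraries that also differ by group, so any row lower in gout and intermediate in gout replicate 1 scores high. CD8A, a coreceptor of cytotoxic T cells, stood at 3.03 FPKM in gout replicate 1, at most 0.247 FPKM in the other gout libraries and at 5.80 ± 2.81 FPKM in control (SD, n = 6). PDCD1, the inhibitory receptor PD-1 of lymphocytes, stood at 4.98 FPKM in gout replicate 1 and at 6.58 ± 2.69 FPKM in control (SD, n = 6).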

How the data were processed

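Kidney RNA of 11 goslings was sequenced as paired-end libraries of polyadenylated RNA, per the labels' protocols, and HISAT and StringTie were used per the submitters' processing notes. The authors' FPKM values were deposited as 1 column per gosling, matched by title. For versions and genome build: not given in the sources used here. A treatment text on oxygen in water tanks does not belong to goslings and was left unused. The extraction protocol mentions adipose RNA, while the source and tissue labels of all samples say kidney. In 55 pairs of libraries at most 0.436% of low rows shared a ratio, so no counts were recovered and no interval for counting error is given. FPKM is relative within a library. Limma p-values judge a group difference against the spread between these goslings. Exact permutation p-values judge a relation over all pairings of the 6 control libraries.

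Values were fitted as log2(FPKM + 1) with limma 3.58.1 in R 4.3.3 (empirical Bayes with trend, two-sided, Benjamini-Hochberg adjustment over the 12252 rows that reached 1 FPKM in 5 or more libraries, threshold 0.05). Tables and exact tests used Python 3.11.15, pandas 2.3.3 and SciPy 1.17.1, figures matplotlib 3.10.9. The members and the 13 lists (265 symbols) were chosen with earlier results of these data known. Named genes were the members, up to 4 passing genes per list with the smallest p (or the smallest p where none passed), rows described as immunoglobulin chains, and the 6 most similar rows. Where a symbol has several rows the most abundant was used. The fit was tested on simulated data of gout against control over 12252 rows: 40.8% of planted 2-fold changes and 87.2% of planted 4-fold changes were called, and 5.47% of calls were false. Changes were planted in the more abundant rows alone, so these shares do not describe genes of low level. The simulated noise was independent between libraries, with no library set apart and no general shift between the groups, unlike the data. Alternatives were other pseudocounts, filters and scalings, robust empirical Bayes, a block on the label number and leaving out each gosling. Label numbers shared by the groups were not taken as pairs. Values of some listed genes are left out of the text, while counts include them.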

Additional observations from a re-analysis of the deposited data

Results flagged for a closer look

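Dixon's criterion for a single distant value was applied to log2(FPKM + 1) in 115 gene and group combinations and was met in 16. Chance alone meets it in about 1 of 20, but gout replicate 1 was known to stand apart and some genes were chosen for likeness to the set, so the count is not read against that share. A group in which all other libraries are listed at 0 meets the criterion by construction. In 13 of them gout replicate 1 was the high library. Among the 10 B cell and plasma cell genes it stood apart in gout for LOC106049915 (108 FPKM, next 4.44), JCHAIN (116 FPKM, next 7.47), IRF4 (1.62 FPKM, next 0.105), POU2AF1 (1.23 FPKM, next 0.223), TNFRSF13B (0.936 FPKM, next 0.110) and PAX5 (0.0477 FPKM, all others listed at 0).

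Gout replicate 1 was also the high gout library for CD247 (7.18 FPKM, next 1.33) and CD8A (3.03 FPKM, next 0.247), both of T cells, and for PDCD1 (4.98 FPKM, next 1.21). The same held for the cytokine receptor IL21R (0.934 FPKM, next 0.212) and the signalling adaptor TRAF5 (1.47 FPKM, next 0.472). Of rows described as Ig heavy chain Mem5-like, LOC106045966 (7.53 FPKM, next 0.996) and LOC106029527 (0.0838 FPKM, all others listed at 0) were high in gout replicate 1. Among the controls, replicate 1 was high for NCF1 (65.4 FPKM, next 20.1) and IL21R (2.76 FPKM, next 1.27), and replicate 2 for LOC106029527 (0.276 FPKM, all others listed at 0). Whether these libraries differ in the cells sampled or in their handling was not tested.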

How the results depend on the processing

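Rows called numbered 856 (9.93% of them higher), 450 with a filter at 5 FPKM, 471 after quantile normalization (226 higher and 245 lower, 48.0% higher) and 548 after upper quartile scaling (32.7% higher), and 316 to 1466 with single goslings left out (without gout replicates 2 and 5). On the TPM scale 19.8% of 712 calls were higher. Of the 10 genes 8 were tested and 6 called lower, where 771 of 12252 rows were called lower. With the filter at 5 FPKM 3 were tested and 2 called, where 401 of 7083 rows were called lower. After quantile normalization 3 were called (CD79B, JCHAIN and LOC106049915), where 245 of 12252 rows were called lower. Single goslings left out gave 3 to 7. The count was 3 without gout replicates 2 and 3, where 267 and 380 of 12252 rows were called lower. It was 7 without gout replicate 1 and without control replicate 3, where 1292 and 513 rows were called lower. Calls among the other B cell list genes went from 20 of 80 to 13 with a pseudocount of 0.01 or on the TPM scale. There 661 and 571 of 12252 rows were called lower. They were 7 of 97 without a filter (634 of 19275 rows) and 8 of 45 with the filter at 5 FPKM. They were 3 after quantile normalization and 8 after upper quartile scaling (369 of 12252 rows). They were 12 after quantile normalization without gout replicate 1 (341 of 12252 rows), a setting chosen after the data were seen. Single goslings left out gave 2 to 28. Among 72 markers of other cells 24 were called lower, 12 after quantile normalization and 15 to 27 with single goslings left out. The causes were not tested beyond the smaller number of rows under the stricter filter.

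Within control kidneys 0 of 12 relations passed, and 1 of 10 after quantile normalization, JCHAIN with LOC106049915 (r = 0.940, exact permutation adjusted p = 0.0278). JCHAIN with BLK turned to r = -0.095 after quantile normalization and -0.031 on the TPM scale. Without the 2 libraries farthest from the median, the member mean gave r = -0.39 with T and NK cell markers and -0.000976 with macrophage markers. A block on the label number gave 671 called rows, of which 598 of the 12252 tested were lower in gout. Called lower there were 5 of the 8 tested genes of the set, 15 of the other B cell genes and 22 other markers. Same-numbered libraries had correlations of their deviations from -0.086 to 0.24, and 1 of 5 gout libraries correlated best with its own number. With 5 pairs this cannot show whether same-numbered libraries share more than a number.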

Other observations

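Further rows tied to B cells by their description or symbol were picked after their values were seen. VPREB3, described as a pre-B lymphocyte protein, was listed at 0 in all 5 gout libraries and at 0.322, 1.01, 0.0912, 0.151, 1.54 and 4.23 FPKM in control replicates 1 to 6. It had its highest value in control replicate 6 and the next in control replicate 5, the same order of the 2 highest controls as PAX5. TNFRSF17, the receptor BCMA of plasma cells, was highest in control replicates 5 (1.17 FPKM) and 2 (1.16 FPKM), the controls with most JCHAIN, and stood at 0.880 FPKM in gout replicate 1. Most of these levels lie near or under 1 FPKM, and both rows were below the filter of the fit.

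LOC106029492, described as similar to the B cell inhibitory receptor CD22, overlapped between the groups. It stood at 9.21, 2.69, 0.916, 2.30, 4.79 and 7.97 FPKM in control replicates 1 to 6 and at 1.98, 0.751, 4.15, 1.38 and 0.404 FPKM in gout replicates 1 to 5 (limma adjusted p = 0.171). Its highest controls, replicates 1 and 6, are those of CD79B, and in gout replicate 3 it was above the level in 3 of the 6 controls. LOC106029493, also described as similar to CD22, stood at 3.04, 0.576, 0.397, 0.439, 0.868 and 2.36 FPKM in control replicates 1 to 6 and at 0.243, 0.0423, 0.657, 0 and 0.0554 FPKM in gout replicates 1 to 5. Apart from gout replicate 3 its gout libraries lay below all controls. LOC106045325, described as similar to a B cell scaffold protein with ankyrin repeats, ranged from 0.289 to 1.48 FPKM in control and from 0 to 0.225 FPKM in gout, without overlap. Both rows were below the filter of the fit.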
